A study of Mus musculus with 72 samples.

Results

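The suprachiasmatic nucleus (SCN) of mice fed a tryptophan-free diet (-Trp) in constant darkness (DD) was followed over 1 circadian day by RNA-seq, in 18 of the 72 libraries of a series on dietary tryptophan and light. Male C57BL/6 mice spent 1 week under their light schedule and then 2 weeks on the -Trp diet or on a control diet matched for nitrogen (Ctrl), either in DD or in a light/dark cycle (LD). Each of the 4 pairings of diet and light has 3 libraries at each of 6 time points spaced 4 h apart, named ZT in LD and CT in DD. The study's figure legends count its replicates as mice, but the labels do not say whether a library is 1 mouse or a pool, so the spread between libraries of a time point may be partly technical. The question asked of -Trp DD was which transcripts had a 24 h rhythm, how the rhythms differed from those of Ctrl DD and -Trp LD, and how far the 3 libraries of a time point were in the same state of the clock.

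The 18 libraries were not taken by their deposited column names. The study's own rhythm tables list per-library values, and each of the 36 control columns there equals a deposited column under another name. For the comparison, the 4 deposited tables were joined with both DD tables ahead of both LD tables. The study's libraries were lined up the other way, LD ahead of DD. Under either light schedule the control diet preceded the -Trp diet, and columns ran by time and replicate. Each control column then equals the deposited column 12 places further along than its own place. The -Trp DD libraries were placed by continuing that shift: CT0 and CT4 are the columns named -Trp LD 16 h and 20 h, and CT8 to CT20 are the columns named Ctrl DD 0 h to 12 h. Of the 18, the 6 columns of CT0 and CT4 follow the shift directly and the other 12 are reached where the order wraps round, so that no value of the study's tables used here places any of them.

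In mammals the SCN is the master clock of the brain. BMAL1 (encoded by Arntl) and CLOCK bind E-boxes and drive the Per, Cry, Nr1d1, Nr1d2, Dbp and Ciart genes, whose products act back on the loop, and the mRNAs of Dbp, Nr1d1 and Ciart peak during the day while Arntl peaks at night. In DD no light resets this loop, and each mouse runs on its own period.

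Values are FPKM (fragments scaled to transcript length and library size), so depth per library is unknown and no counting error can be given. Summed FPKM lay between 317790 and 353587 in 17 of the libraries and at 411944 in CT4 replicate 2. The 18 libraries of Ctrl DD lay between 317417 and 352980, and the 36 LD libraries between 403066 and 524705. On 513 genes whose Ctrl LD and Ctrl DD libraries did not overlap and differed by over 1 log2 unit, scaled so that Ctrl DD is near 0 and Ctrl LD near 1, CT4 replicate 2 was at 0.61 and the other 17 between -0.09 and 0.10. The main gene counts and the median distance of the clock hour are also given without this library, and the marker ranges include it. Of 8 SCN neuron markers, 7 had a median above 1 FPKM. The summed level of the 8 ran from 201 to 803 FPKM, highest in CT4 replicate 2. Markers of neighbouring tissue varied too. The sum of 4 arcuate markers ran from 16.2 to 583 FPKM, lowest in CT12 replicate 1 and highest in CT4 replicate 2. The sum of 3 markers of paraventricular and supraoptic neurons ran from 422 to 1460 FPKM, highest in CT12 replicate 1. The sum of 4 choroid plexus markers ran from 9.62 to 52.9 FPKM, highest in CT4 replicate 1. In bulk tissue, fewer cells of a type and less RNA per cell cannot be told apart.

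By labelled time, 354 of 24883 rows (1.42%) were called oscillating by JTK_CYCLE, an exact rank test for a 24 h rhythm. The call was p under 0.05 as the study set it, with no adjustment over genes. The share called was below that threshold of 0.05. None of the called rows passed Benjamini-Hochberg adjustment. Under the same test 1225 rows were called in Ctrl DD, 1846 in -Trp LD and 1769 in Ctrl LD, counts whose differences have no test here. The called rows of -Trp DD had their most frequent peaks at 2 h (54 rows) and 6 h (52 rows). Without CT4 replicate 2 the count was 602, and without CT0 replicate 1 it was 677. In the 18 columns that carry the name -Trp DD the count was 1661.

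Of 24 core clock genes, 1 was called by labelled time, against 1.42% of all rows. It was Ciart, a repressor of BMAL1 and CLOCK. Ciart was at 5.28, 4.88 and 5.42 FPKM at CT0, at 7.79, 7.15 and 5.70 at CT4, at 8.50, 7.36 and 6.06 at CT8, at 7.58, 7.98 and 8.41 at CT12, at 6.47, 9.62 and 9.09 at CT16 and at 6.06, 7.42 and 6.42 at CT20. The 3 CT0 libraries were the lowest of the 18. The JTK_CYCLE p was 0.00576 with a peak at 14 h, and the adjusted p in limma was 0.887. Ciart lies on chromosome 3 (95878503 to 95882251, minus strand, mm10). The 250 bases before its RefSeq start site in GRCm38.p6 (chr3:95882229-95882478, minus strand) are shown with those before the start of Per1 (chr11:69098699-69098948, plus strand), because both genes belong to the loop read below. Capitals mark each match of the E-box CACGTG, which reads the same on both strands.
Ciart: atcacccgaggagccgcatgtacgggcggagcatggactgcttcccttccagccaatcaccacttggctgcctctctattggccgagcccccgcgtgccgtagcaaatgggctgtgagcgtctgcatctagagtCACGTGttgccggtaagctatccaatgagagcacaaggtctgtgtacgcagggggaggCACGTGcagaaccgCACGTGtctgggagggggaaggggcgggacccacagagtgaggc
Per1: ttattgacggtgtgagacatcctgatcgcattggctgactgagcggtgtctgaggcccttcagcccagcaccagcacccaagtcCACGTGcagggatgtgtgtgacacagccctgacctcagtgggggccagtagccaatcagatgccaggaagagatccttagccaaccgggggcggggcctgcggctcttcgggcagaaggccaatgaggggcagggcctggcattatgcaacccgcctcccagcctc
The Ciart window held 3 matches and the Per1 window 1. In the windows of 300 bases given for each start, 5 of the 20 core clock genes with a window held CACGTG (Per1, Cry1, Tef, Bhlhe41 and Ciart), against 7.15% of all 32851 windows. A gene was counted if any of its windows held the motif, so a share of genes is set beside a share of windows.

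Dbp, a PAR bZIP transcription factor whose mRNA has the largest swing of the loop in LD, did not pass by labelled time in -Trp DD. Dbp was at 10.5, 15 and 12.9 FPKM at CT0, at 22.6, 23.6 and 19.4 at CT4, at 19.4, 20.0 and 14.5 at CT8, at 11.8, 22.5 and 15.3 at CT12, at 19.5, 21.4 and 23.2 at CT16 and at 10.6, 20.9 and 14.2 at CT20. CT12 and CT20 each held a library near the lowest and one near the highest of all 18. The fitted 24 h amplitude of Dbp was 0.17 ± 0.11 (log2 scale, SE, n = 18; limma adjusted p = 0.999), against 0.52 ± 0.10 in -Trp LD (adjusted p = 0.0209). In Ctrl DD the amplitude of Dbp was 0.07 ± 0.14 (limma unadjusted p = 0.879), so a low amplitude was not particular to -Trp DD.

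Arntl, which peaks opposite to Dbp, was at 9.33, 9.46 and 9.65 FPKM at CT0, at 7.41, 9.65 and 7.92 at CT4, at 7.70, 7.39 and 9.15 at CT8, at 9.05, 8.18 and 8.17 at CT12, at 7.98, 7.44 and 7.77 at CT16 and at 9.81, 7.55 and 8.30 at CT20. At CT20, replicate 1 had the highest Arntl of the 18 libraries and nearly the lowest Dbp, and replicate 2 had a low Arntl and a high Dbp. The nuclear receptor gene Nr1d1 was likewise at 16.3, 29.7 and 20.8 FPKM at CT20. Per2, a repressor of the loop, was at 6.96, 4.14 and 4.05 FPKM at CT4, with replicate 1 apart from the other two.

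**Figure D1:**
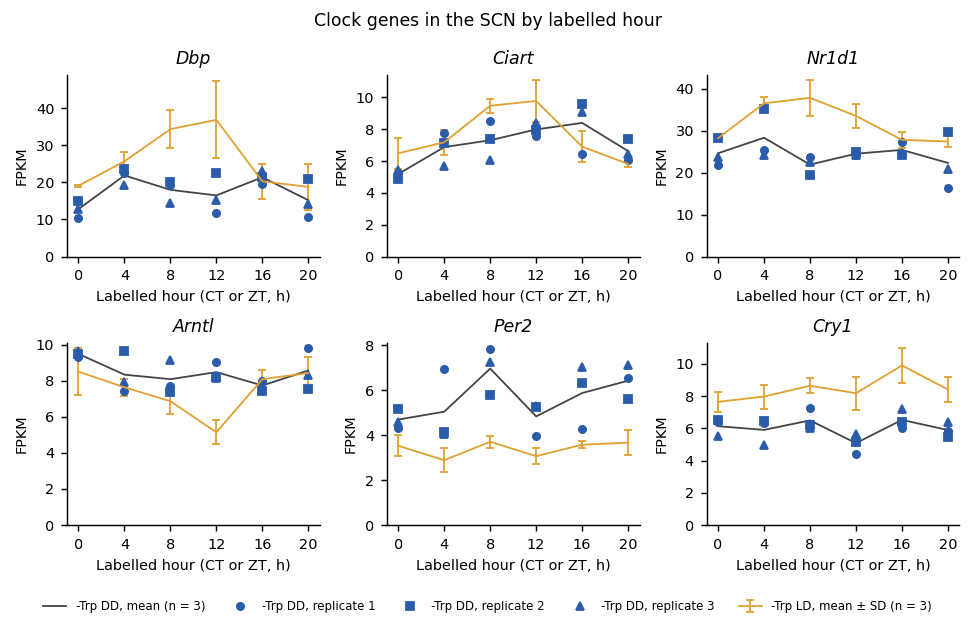
FPKM of 6 clock genes (linear axes from 0) against labelled hour. Points are the 3 -Trp DD libraries of each time point by replicate, the dark line is their mean, and the orange line is the -Trp LD mean with its SD (n = 3). At CT12 and CT20 the Dbp points of -Trp DD spread over most of the range of all 18 libraries.

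A clock score was formed for each library as the mean log2 level of Dbp, Ciart, Nr1d1 and Nr1d2 minus that of Arntl, which is high by day. In -Trp DD the score was 0.49, 0.63 and 0.52 at CT0, 1.31, 0.90 and 1.01 at CT4, 1.18, 1.17 and 0.67 at CT8, 0.73, 1.17 and 0.99 at CT12, 1.05, 1.31 and 1.28 at CT16, and 0.38, 1.24 and 0.84 at CT20. The libraries agreed at CT0 (SD 0.08) and differed most at CT20 (SD 0.43). The means of the 6 time points ran from 0.55 to 1.22, against 0.86 to 1.99 in -Trp LD and 0.59 to 1.33 in Ctrl DD. CT12 replicates 1 and 3, with scores of 0.73 and 0.99, were also the libraries lowest in Pomc (3.93 and 2.74 FPKM, against 14.3 to 102 in the other 16) and highest in Oxt (1450 and 1370 FPKM), and the part of the cut of the tissue in their score was not tested.

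The SD of the score within a time point did not differ detectably between -Trp DD and either comparison group. It was wider in -Trp DD at 3 of 6 time points than in Ctrl DD, with a geometric mean ratio of SDs of 0.987 (exact two-sided sign-flip test over the 6 time points, p = 1). Against -Trp LD it was wider at 3 of 6 time points, with a geometric mean ratio of 1.36 (exact sign-flip p = 0.5, 1 after adjustment over both comparisons). The smallest p that 6 time points allow is 0.0312. These tests do not show that the spreads are alike, and leaving out 1 library moved the log2 ratio between -0.88 and 0.21 against Ctrl DD and between -0.41 and 1.03 against -Trp LD.

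Which hour of the LD day each library resembled was then read from 11 clock genes (Arntl, Per1, Per2, Per3, Cry1, Cry2, Nr1d1, Nr1d2, Dbp, Ciart and Tef). Each gene was centred on the mean of its own group, and the hour was that of the Ctrl LD 24 h cosine curves nearest to the library. The reading was within a median of 1.30 h of the label in Ctrl LD, each library being left out of its own curves, and within 1.80 h in -Trp LD. In -Trp DD the median difference from the label was 5.65 h, in Ctrl DD it was 5.20 h, and hours spread evenly would give 6 h. This is a description with no test.

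In -Trp DD the clock hours were 23.1, 17.3 and 0.2 at CT0, 13.3, 3.4 and 2.2 at CT4, 13.1, 14.2 and 16.3 at CT8, 1.8, 5.7 and 3.7 at CT12, 2.9, 11.8 and 12.3 at CT16, and 18.1, 5.3 and 15.9 at CT20. Of the 18 hours, 6 lay within 4 h of the label, and 6 were over 8 h from it. CT8 and CT12 were each internally alike, with a widest gap between their libraries of 3.2 h and 3.9 h, yet the CT12 libraries read 1.8 to 5.7 h and the CT8 libraries 13.1 to 16.3 h. At CT4, CT16 and CT20 the libraries of 1 time point were up to 11.1, 9.4 and 11.2 h apart. Ctrl DD clock hours were 22.3, 2.2 and 23.9 at CT0, 12.8, 11.2 and 4.5 at CT4, and 13.2, 14.3 and 12.6 at CT8. There CT12 read 23.9, 4.0 and 21.8 h, CT16 read 2.1, 13.5 and 14.2 h, and CT20 read 15.3, 10.6 and 14.8 h. Hours far from the label were thus seen in both DD groups. The median of the 6 widest gaps was 8.1 h in -Trp DD, 5.5 h in Ctrl DD and 4.9 h in -Trp LD, and the widest was 11.9 h in Ctrl DD and 8.8 h in -Trp LD, differences that were not tested. CT4 replicate 2 read 3.4 h, and without it the median difference was 5.10 h.

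**Figure D2:**
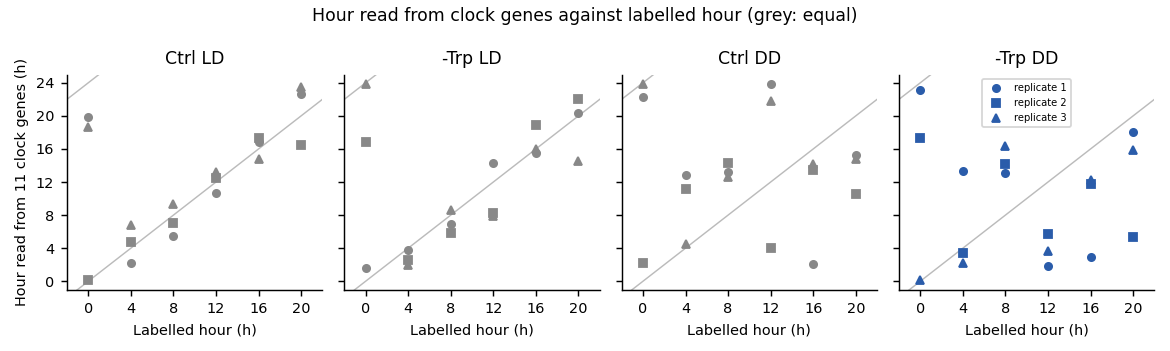
Hour read from 11 clock genes (y axis, h) against labelled hour (x axis, h) for the 18 libraries of each group, by replicate, with grey lines where both are equal. The LD libraries follow the lines, with a median distance of 1.30 h in Ctrl LD and 1.80 h in -Trp LD, and the -Trp DD libraries are a median of 5.65 h away.

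Genes that took no part in reading the clock hour were then compared along it. This comparison was added after the data were seen, and the hour comes from the same libraries as the genes, so technical or tissue differences shared by a library enter both. With the 11 genes left out, 1848 of 14442 genes (12.8%) had a 24 h rhythm along the clock hour at an unadjusted limma p under 0.05, against 322 (2.23%) along the labelled hour. The share along the labelled hour was below the threshold of 0.05. After adjustment 28 genes (0.194%) remained along the clock hour and 0 along the labelled hour. Leaving out 1 library gave 1414 to 2322 genes at the unadjusted p, with 1996 without CT4 replicate 2, and 4 to 54 after adjustment. Here and below, gene fits along the clock hour that left out a library kept the hours read with all libraries. No gene passed the adjusted p when no filter on low values was applied or when the curves came from Ctrl DD. In Ctrl DD, 1187 genes passed the unadjusted p along the clock hour and 1195 along the labelled hour. In -Trp LD, where the hour read was close to the label, the calls were also more numerous along the clock hour, with 3876 genes against 2312 at the unadjusted p and 761 against 384 at the adjusted p.

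Of 9 glucocorticoid-responsive genes outside the 11, 6 had an unadjusted p under 0.05 along the clock hour and none along the labelled hour, against 12.8% and 2.23% of all genes, and their median amplitude was 0.36 against 0.08 over all genes tested. Fkbp5, a chaperone of the glucocorticoid receptor, was at 5.17, 7.08 and 5.98 FPKM at CT0, at 12.0, 8.54 and 7.19 at CT4, at 12.2, 10.5 and 11.3 at CT8, at 5.44, 7.14 and 4.26 at CT12, at 7.98, 8.07 and 13.7 at CT16 and at 9.44, 7.71 and 12.7 at CT20. By labelled hour its amplitude was 0.02 ± 0.15 (log2, SE, n = 18; limma unadjusted p = 0.986). By clock hour the amplitude of Fkbp5 was 0.44 ± 0.08 with a peak at 13.0 h (limma adjusted p = 0.0359). In -Trp LD, by labelled hour, Fkbp5 peaked at 14.8 h with an amplitude of 0.59.

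Sgk1, a kinase gene induced by glucocorticoids, also differed between libraries of 1 time point. It was at 39.4, 7.30 and 17 FPKM at CT4 and at 12.4, 41.4 and 46.1 FPKM at CT16. The high Sgk1 libraries, CT4 replicate 1 and CT16 replicates 2 and 3, were those with clock hours of 13.3, 11.8 and 12.3, and the low libraries of the same time points had clock hours between 2.2 and 3.4. The amplitude along the clock hour was 0.98 ± 0.17 with a peak at 11.4 h (limma adjusted p = 0.0229), and 0.21 ± 0.26 along the labelled hour (unadjusted p = 0.727). Tsc22d3, the gene of the glucocorticoid-induced leucine zipper, had an amplitude of 0.36 ± 0.06 along the clock hour and a peak at 13.1 h (limma adjusted p = 0.0229). The peaks in -Trp LD were at 14.5 h for Sgk1 and 14.6 h for Tsc22d3. The other called members, Zbtb16, Cdkn1a and Nfkbia, did not pass the adjusted p. They peaked at 15.8, 15.9 and 10.3 h along the clock hour and at 14.3, 15.9 and 13.9 h in -Trp LD. Sult1a1, Mt1 and Mt2 were not called along the clock hour. Leaving out any 1 library kept Fkbp5, Sgk1 and Tsc22d3 at an unadjusted limma p of 0.000213 or less, though the adjusted p then reached 0.101, 0.0555 and 0.0536.

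**Figure D3:**
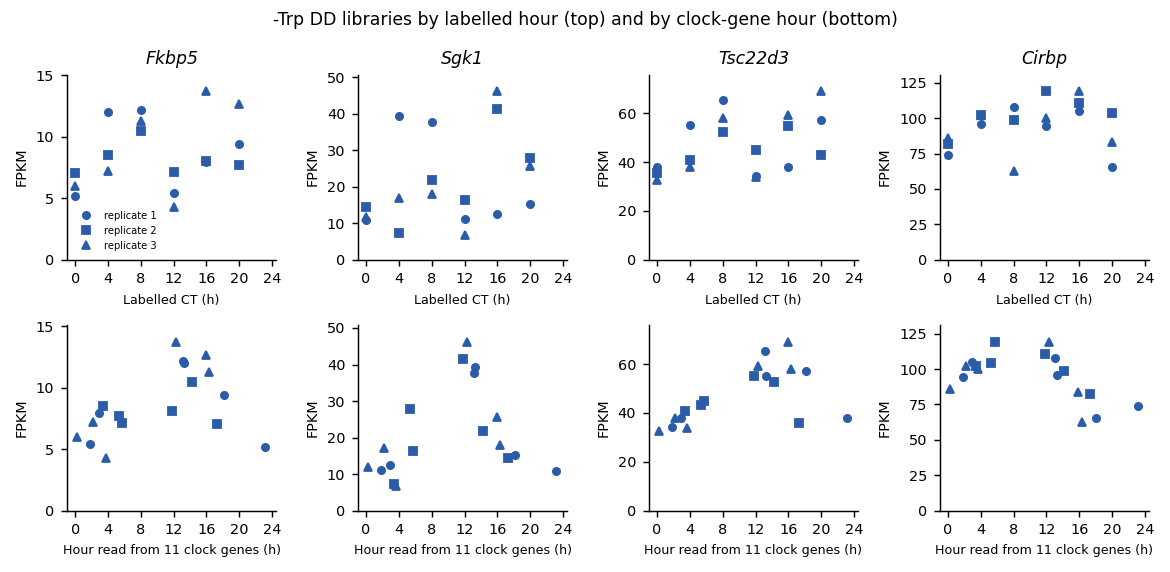
FPKM (linear axes from 0) of Fkbp5, Sgk1, Tsc22d3 and Cirbp in the 18 -Trp DD libraries, against labelled CT in the top row and against the hour read from 11 other genes in the bottom row. Points are single libraries by replicate. The Sgk1 libraries at 37.6 to 46.1 FPKM come from CT4, CT8 and CT16 but have clock hours of 11.8 to 13.3.

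Of 12 temperature and heat shock genes, 7 had an unadjusted limma p under 0.05 along the clock hour and 1 along the labelled hour, against 12.8% and 2.23% of all genes, with a median amplitude of 0.28 along the clock hour. Cirbp, a cold-inducible RNA-binding protein, was at 108, 98.5 and 62.8 FPKM at CT8 and at 65.7, 104 and 83.5 FPKM at CT20. Its amplitude along the clock hour was 0.42 ± 0.06 with a peak at 8.1 h (limma adjusted p = 0.0229), and its peak in -Trp LD was at 8.8 h. Without 1 library the adjusted p of Cirbp reached 0.0566. Along the clock hour of Ctrl DD, Cirbp had an amplitude of 0.39 ± 0.07 and a peak at 10.2 h (limma adjusted p = 0.0642). Rbm3, the other cold-inducible member, peaked at 9.5 h along the clock hour (unadjusted p = 0.000782, limma adjusted p = 0.110) and at 10.7 h in -Trp LD. The 5 heat shock genes that passed the unadjusted p (Hsph1, Hsp90aa1, Dnajb1, Hspa1a and Hspa1b) peaked between 18 h and 21.3 h along the clock hour. The chaperone genes Dnajb1 and Hspa1b peaked at 18.4 h and 18 h along the clock hour (unadjusted limma p = 0.00107 and 0.00361, n = 18) and at 17.3 h and 17.9 h in -Trp LD, and Hspa1b cannot be told from its near-identical copy Hspa1a. Hsph1, a chaperone of the HSP110 family and the only gene of the list called by JTK_CYCLE along labelled time (exact p = 0.0196), peaked at 19.6 h along the clock hour and at 20.3 h in -Trp LD. The remaining 5 members were not called along the clock hour, among them the reticulum chaperone Hspa5, with an amplitude of 0.11 ± 0.07.

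Of the 13 core clock genes outside the 11, 3 had an unadjusted limma p under 0.05 along the clock hour and 0 along the labelled hour, against 12.8% and 2.23% of all genes. Nfil3, which represses the targets of Dbp, had an amplitude of 0.32 ± 0.10 and a peak at 20.2 h (unadjusted p = 0.0158), and Bhlhe41, a repressor that binds E-boxes, peaked at 12.2 h (unadjusted p = 0.0194). Their peaks were at 18.7 h and 12.1 h in -Trp LD, and at 20.8 h and 10.6 h along the clock hour of Ctrl DD. Npas2, a partner of BMAL1, peaked at 18.1 h (unadjusted p = 0.0482). Usp2, a deubiquitinase gene of the clock's output that is in none of the lists and was named after its value was seen, had an amplitude of 0.30 ± 0.05 and a peak at 11 h (limma adjusted p = 0.0255), against 13.7 h in -Trp LD. Without 1 library the adjusted p of Usp2 reached 0.0732. Along the clock hour of Ctrl DD the amplitude of Usp2 was 0.06 ± 0.12.

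Of 18 SCN peptides, receptors and transcription factors, 4 passed the unadjusted p along the clock hour (Vipr2, Prokr2, Avpr1a and Lhx1), against 12.8% of all genes. Along the labelled hour 1 passed (Six6, unadjusted limma p = 0.0443, n = 18), against 2.23%, and none was called by JTK_CYCLE. The VIP receptor gene Vipr2 had an amplitude of 0.73 ± 0.26 and a peak at 18.6 h (unadjusted limma p = 0.0169, n = 18), and the vasopressin receptor gene Avpr1a one of 0.26 ± 0.07 and a peak at 17.7 h (unadjusted p = 0.00206). Vipr2 and Prokr2, the prokineticin receptor gene, are held by SCN neurons, and the sum of SCN neuron markers moved over a 201 to 803 FPKM range in the same libraries, whose part in these peaks was not tested. The peptide genes themselves were not called. Avp (vasopressin) ran from 128 to 756 FPKM over the 18 libraries, with an amplitude of 0.22 ± 0.21 along the clock hour, and Vip ran from 1.37 to 52.0 FPKM with an amplitude of 0.79 ± 0.39. The highest Avp was in CT4 replicate 2. The 2 lowest Vip libraries were CT16 replicate 1 at 1.37 and CT4 replicate 3 at 1.40 FPKM.

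None of 11 immediate early genes tested and none of 6 genes of tryptophan metabolism and serotonin passed the unadjusted p, and 2 of 19 genes of the ATF4 response did (Ddit4 and Mthfd2). Fos and Egr1, markers of recent neuronal activity, had amplitudes of 0.14 ± 0.15 and 0.05 ± 0.09. Atf4, a transcription factor of amino acid shortage, was called by JTK_CYCLE along labelled time (exact p = 0.0196, peak at 10 h) and had an amplitude of 0.02 ± 0.04 along the clock hour. Of 57 cell type markers tested, 7 passed the unadjusted p along the clock hour, 12.8% being the share of all genes. They were Cldn5 and Pecam1 of the endothelium, Cx3cr1 and Aif1 of microglia, Lhx1, Stmn2 and Drd1. Cldn5, a tight junction gene of vessels, had an amplitude of 0.54 ± 0.13 and a peak at 23.4 h (unadjusted limma p = 0.000569, n = 18), against 1.3 h in -Trp LD. Along the clock hour of Ctrl DD, Cldn5 had an amplitude of 0.50 ± 0.13 and a peak at 23.9 h. No arcuate, paraventricular, choroid plexus or oligodendrocyte marker passed. Their median amplitudes along the clock hour were 0.87, 0.15, 0.16 and 0.09, against 0.08 over all genes tested. Arcuate markers thus varied widely along the clock hour without passing, and the part of the cut of the tissue in this was not tested.

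Outside the 11, 384 genes had a 24 h rhythm by labelled hour in -Trp LD (limma adjusted p under 0.05). Peaks were compared over 375 of them, leaving out 8 whose mean in -Trp DD was under 0.5 FPKM and 1 whose symbol is repeated. Along the labelled hour of -Trp DD, 172 of the 375 (45.9%) peaked within 4 h of their -Trp LD peak, the median distance was 4.4 h, and 15 had an unadjusted p under 0.05. Along the clock hour, 351 (93.6%) peaked within 4 h, the median distance was 1.3 h, and 230 had an unadjusted p under 0.05. Their median amplitude was 0.25 in -Trp LD, 0.07 along the labelled hour of -Trp DD and 0.16 along its clock hour. Genes move together within a library, and these shares are a description with no test.

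The closeness held for peaks all round the day. Of 40 genes with -Trp LD peaks between 21 h and 3 h, 39 peaked within 4 h along the clock hour, as did 116 of 128 between 3 h and 9 h, 52 of 53 between 9 h and 15 h and 144 of 154 between 15 h and 21 h. Along the labelled hour the counts were 30, 50, 33 and 59. Without CT4 replicate 2, 350 of the 375 were within 4 h, and leaving out any 1 library gave 342 to 355. The hours were not read anew in these fits, so they do not show how far the reading depends on 1 library. With the Per and Cry genes left out of the reading 353 were within 4 h, and with Dbp and Ciart left out 332. Where the curves came from Ctrl DD by its labels in place of Ctrl LD, 181 were within 4 h. In Ctrl DD, read in the same way, 84.5% of the 375 were within 4 h along the clock hour and 47.7% along the labelled hour.

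**Figure D4:**
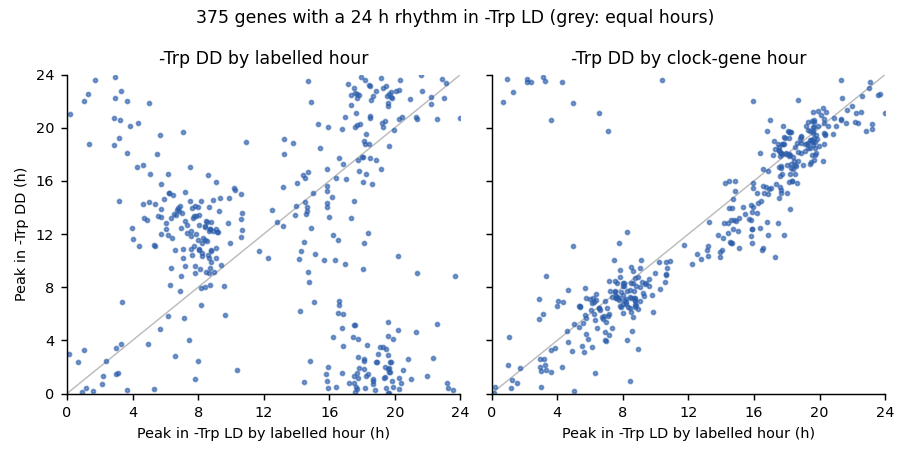
Peak hour in -Trp DD (y axis, h) against peak hour in -Trp LD by labelled hour (x axis, h) for 375 of the 384 genes rhythmic in -Trp LD, those with 1 row per symbol also tested in -Trp DD, with -Trp DD ordered by labelled hour on the left and by the hour read from 11 other genes on the right. Each point is 1 gene and grey lines mark equal hours. Within 4 h of the lines lie 172 genes on the left and 351 on the right.

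The genes with the smallest JTK_CYCLE p along labelled time did not follow the clock hour. Fam133b (exact p = 6.27e-05), Srsf11 (exact p = 0.000167) and Syndig1l (exact p = 0.000167) all had their JTK_CYCLE peak at 6 h. Srsf11, a splicing factor of the SR family, was at 33.6, 31.3 and 33.3 FPKM at CT0, at 36.2, 37.8 and 34.8 at CT4, at 36.2, 38.3 and 33.8 at CT8, at 26.2, 27.3 and 28.6 at CT12, at 27.4, 27.3 and 26.2 at CT16 and at 30, 26.0 and 26.6 at CT20. The 9 libraries of CT0 to CT8 all lay above the 9 of CT12 to CT20. Along the clock hour the amplitude of Srsf11 was 0.13 ± 0.08 (unadjusted limma p = 0.258, n = 18), that of Fam133b 0.15 ± 0.08 and that of Syndig1l 0.02 ± 0.09. Srsf11 lies on chromosome 3 (158010473 to 158036639, minus strand, mm10).

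The 24 h pattern by labelled hour differed between diets in DD for 5 of 14484 genes (0.0345%; limma test of the interaction, adjusted p under 0.05), with 990 (6.84%) at an unadjusted p under 0.05. Without CT4 replicate 2 of -Trp DD there were 8. No core clock gene was among the 5, and 3 of 24 had an unadjusted p under 0.05 (Ciart, Rora and Timeless). Timeless had an amplitude of 0.04 ± 0.10 in -Trp DD and 0.44 ± 0.09 in Ctrl DD (limma interaction test, unadjusted p = 0.00401, n = 36; adjusted p = 0.4996). Srsf11 had the smallest p (limma adjusted p = 0.000464). Its amplitude was 0.23 ± 0.03 with a peak at 4.6 h in -Trp DD and 0.16 ± 0.04 with a peak at 16.1 h in Ctrl DD, where the time-point means of Srsf11 were 26.9 to 27.6 FPKM from CT0 to CT8 and 32.1 to 33.4 from CT12 to CT20. Ggnbp2 and Larp7, the latter a protein of the 7SK snRNP, had the same opposite placing (limma adjusted p = 0.0229 for both), with peaks at 5.4 h and 3.6 h in -Trp DD and at 17.9 h and 16.3 h in Ctrl DD. Srsf11 was called with each of the 36 libraries left out in turn, and Ggnbp2 and Larp7 in 29 of 36 such fits each. In the order in which the libraries were placed, -Trp DD directly follows Ctrl DD. The higher Srsf11 means thus form an unbroken run from CT12 of Ctrl DD to CT8 of -Trp DD. The part of this order in the difference was not tested.

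**Figure D5:**
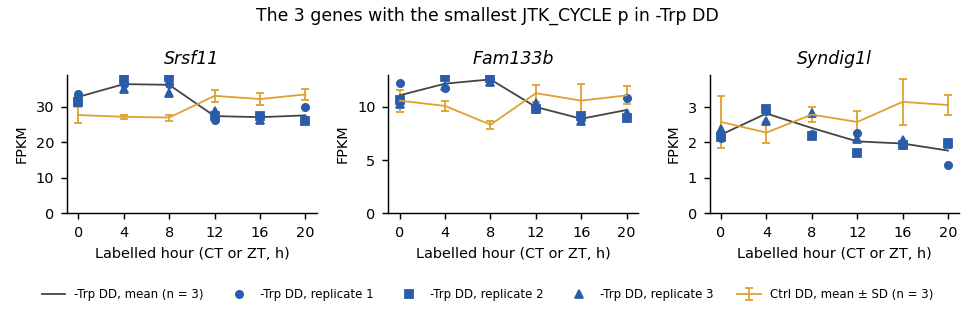
FPKM (linear axes from 0) of Srsf11, Fam133b and Syndig1l against labelled hour. Points are -Trp DD libraries by replicate with their mean as a dark line, and the orange line is the Ctrl DD mean with its SD (n = 3). The Srsf11 means of -Trp DD are 32.7 to 36.3 FPKM from CT0 to CT8 and 27.0 to 27.5 from CT12 to CT20, and those of Ctrl DD are placed the other way.

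Between -Trp DD and -Trp LD the pattern differed for 4 of 14403 genes (0.0278%; limma interaction test, adjusted p under 0.05), all with the smaller amplitude in -Trp DD, and 1241 (8.62%) had an unadjusted p under 0.05. Without CT4 replicate 2 of -Trp DD there were 3. Srsf5, another SR splicing factor, had the smallest p (limma adjusted p = 3.01e-07). Its time-point means in -Trp LD ran from 86.6 FPKM at ZT20 to 166 at ZT4, with an amplitude of 0.49 ± 0.04. In -Trp DD all 18 Srsf5 libraries lay between 140 and 192 FPKM, with an amplitude of 0.06 ± 0.04 by labelled hour and 0.10 ± 0.03 by clock hour. Ewsr1, an RNA-binding protein gene, and D11Wsu47e followed (limma adjusted p = 0.0258 and 0.0177). Srsf5 and D11Wsu47e were called in each of the 36 fits that left out 1 library, and Ewsr1 in 26 of 36, with an adjusted p of up to 0.0833. Of the 24 core clock genes none passed the adjusted p and 5 the unadjusted p (Arntl, Bhlhe41, Ciart, Nr1d1 and Tef). Of the 12 temperature and heat shock genes 9 passed the unadjusted p, and Cirbp had an amplitude of 0.17 ± 0.07 by labelled hour in -Trp DD against 0.61 ± 0.06 in -Trp LD (limma adjusted p = 0.0508). These values are by labelled hour, along which the libraries of -Trp DD did not follow the LD clock as read above.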

How the data were processed

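SCN RNA was sequenced by the study as stranded poly(A) libraries on a NovaSeq (paired-end). Per the labels, the authors used Trimmomatic, TopHat, mm10 and Cufflinks (versions not given in the sources used here) and deposited FPKM for 24883 rows, with no counts, so depth and its error are unknown. Members, lists and tests were chosen with earlier results of these data known. The order of the columns was taken as in the report (values matched within 0.0001 in relative terms). JTK_CYCLE (6 time points, 24 h period, p under 0.05, checked on simulated data) followed the study. limma 3.58.1 in R 4.3.3 fitted a 24 h cosine and sine to log2(FPKM + 0.5), the libraries having been scaled by median-of-ratios factors from 15918 rows with no 0. Genes averaging under 0.5 FPKM were left out. The call was by its moderated F-test and Benjamini-Hochberg adjustment over all genes tested. Amplitudes run from mean to peak on that scale and understate changes of low genes. Named genes were the members of listed groups called by JTK_CYCLE or along the clock hour, with some that were not, and the 3 smallest p of JTK_CYCLE and of each rhythm-difference test. The clock hour was read on a 0.1 h grid, with genes weighted by the residual SD of their curve. Replicate numbers come from the column names. Promoters are from RefSeq (GRCm38.p6), gene positions from GENCODE M21. Alternatives were another pseudocount, no filter, FPKM as deposited, a replicate block, columns as named and leaving out each library.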

Additional observations from a re-analysis of the deposited data

Results flagged for a closer look

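In 6 genes the 24 h pattern by labelled hour differed between groups in the limma interaction test, and the reason was not tested. Between -Trp DD and Ctrl DD these were Srsf11 (adjusted p = 0.000464), Ggnbp2 (adjusted p = 0.0229) and Larp7 (adjusted p = 0.0229), each with its peak in the first part of the day in -Trp DD and about opposite in Ctrl DD. Between -Trp DD and -Trp LD these were Srsf5 (adjusted p = 3.01e-07), D11Wsu47e (adjusted p = 0.0177) and Ewsr1 (adjusted p = 0.0258), each with the smaller amplitude in -Trp DD. With 1 library left out, Srsf11, Srsf5 and D11Wsu47e were called in all 36 fits, Ggnbp2 and Larp7 in 29 of 36 each and Ewsr1 in 26 of 36.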

How the results depend on the processing

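The count of 354 rows called oscillating became 0 after Benjamini-Hochberg adjustment, 809 with time as a factor in limma (unadjusted p), 312 with a replicate block in the cosinor model, 1661 in the columns as named, and 258 to 677 when 1 library was left out. The clock list count of 1 became 8 in the columns as named and 1 to 2 without 1 library, the 2 being without CT8 replicate 3. The rhythm difference between diets (5 genes) became 4 with a replicate block, 4993 in the columns as named and 1 to 8 without 1 library, moving by over 1.5 times without Ctrl DD 4 h replicates 1 and 2, 8 h replicates 1 and 3, 16 h replicates 2 and 3, any 20 h replicate, or -Trp DD 4 h replicates 2 and 3, 8 h and 12 h replicate 2, and 20 h replicates 1 and 3. The difference between light schedules (4 genes) became 12 with a pseudocount of 0.1, 5 with a replicate block, 2 in the columns as named and 2 to 18 without 1 library, moving by over 1.5 times without -Trp LD 0 h replicate 1, 4 h replicate 2, any 16 h replicate, 20 h replicates 1 and 2, or -Trp DD 0 h replicate 1, 4 h replicate 3 and any 20 h replicate. The log2 ratio of score SDs of -0.02 against Ctrl DD became 0.11 with Dbp minus Arntl only and -0.88 to 0.21 without 1 library, and that of 0.45 against -Trp LD became -0.74 in the columns as named and -0.41 to 1.03 without 1 library (below 0 without -Trp DD 8 h replicate 3 or 16 h replicate 1), with no exact p under 0.219 in any setting. Same-numbered libraries of -Trp DD and Ctrl DD had deviations from their time-point means that correlated at -0.07 to 0.45 (median 0.18, 12 of 18 over 0.1). With -Trp LD the median was 0.12 (10 of 18 over 0.1). The numbers were not taken as pairs in the main tests, and whether libraries of one number share an effect was not tested.

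Along the clock hour, a result and alternatives added after seeing the data, the 1848 genes at the unadjusted p became 1060 with the template from Ctrl DD, and the 28 genes at the adjusted p became 0 with that template, 16 without Dbp and Ciart, 56 without the Per and Cry genes, 61 with FPKM as deposited, 17 with a replicate block and 0 with no filter on low values, while 4 to 54 were called without 1 library (10 to 17 without CT0 replicate 1, CT8 replicates 1 and 3, CT12 replicates 1 and 2 or CT20 replicates 1 and 3, 4 without CT16 replicate 3, and 53 and 54 without CT0 and CT4 replicate 2). The 351 genes with peaks within 4 h became 181 with the template from Ctrl DD and 337 with a replicate block. The median distance of the clock hour from the label, 5.65 h, ran from 4.20 to 7.40 h over 24 alternatives. The cause of these shifts was not tested. Depth is unknown, and 3 libraries per time point limit every comparison within one.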
